A study of Homo sapiens with 8 samples.

Results

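Single-cell transcriptomes of SUM159 cells selected in JQ1+palbociclib were compared with those of cells selected in JQ1+paclitaxel. Cells were taken by the library name that the deposited cell metadata give, which placed 1024 cells in the JQ1+palbociclib library and 643 in the JQ1+paclitaxel library, 1667 of the 5738 cells of the series. SUM159 is an established human triple-negative breast cancer line, and the cells carried the ClonTracer library of lentiviral DNA barcodes. JQ1 was given at 100 nM in both combinations, palbociclib at 160 nM and paclitaxel at 0.6 nM, over as many as 18 passages. The series had 8 libraries, 1 per treatment and experiment. JQ1+paclitaxel was grown in an experiment together with DMSO vehicle, paclitaxel alone and a JQ1 library called JQ1-A. JQ1+palbociclib was grown in a second experiment with palbociclib alone and a JQ1 library called JQ1-B, with no vehicle library among the 8. The remaining library held cells taken before treatment. Replicate cultures were mixed before encapsulation, and a JQ1+palbociclib culture had died out during selection, so the clones that survived in each culture cannot be told apart from the treatment.

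JQ1 displaces BET proteins from acetylated histones and so lowers transcription at many growth genes. Palbociclib blocks CDK4 and CDK6, the kinases that phosphorylate the RB protein when cells leave G1, and paclitaxel binds β-tubulin and stabilises microtubules, which disturbs mitosis. The comparison asked how cells that had come through JQ1 with a G1 inhibitor differed from cells that had come through JQ1 with a mitotic poison. With 1 library a side there was no replicate and no test between the libraries. Levels are unique molecular identifiers (UMIs) summed over all cells of a library and divided by the library's total, as UMIs of a gene per 1000000 UMIs (CPM). The interval beside each ratio is an exact 95% binomial interval and covers counting error only. Partner drug and experiment cannot be told apart in this comparison. The ratio of JQ1-B to JQ1-A, the same drug and dose in both experiments, therefore stands beside the results as their background.

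The libraries held 24240835 and 14341832 UMIs, with means of 23673 and 22305 UMIs per cell, and no cell barcode occurred in both. Median mitochondrial shares were 7.18% in JQ1+palbociclib and 4.69% in JQ1+paclitaxel, against 5.03% in JQ1-B and 5.35% in JQ1-A. All 11 SUM159 identity genes reached 10 CPM in at least 1 of the combinations. Markers of luminal receptors summed to 3.09 and 5.23 CPM, those of endothelial cells to 0.248 and 0.0697 CPM, those of blood cells to 8.04 and 13.2 CPM and those of fibroblasts to 19.1 and 14.8 CPM. The fibroblast sum was higher in the library with the higher matrix genes, and its part in those results was not tested. In sums over a library, fewer cells of a kind and less RNA per cell cannot be told apart.

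Extracellular matrix, adhesion and protease genes were among those higher in JQ1+palbociclib, and chemokine, lipid carrier and histone genes were among those higher in JQ1+paclitaxel. Of the lists tested, cytokines and chemokines (-0.66 on the log2 scale) and histones (-0.65) lay furthest from the median of all genes. The cytokine list also differed in the same direction between the JQ1 libraries, where the histone median was 0.07. When each combination was divided by JQ1 alone of its experiment, the lists lay at -0.31 and -0.57 from the median of all genes. Of 6826 genes that reached 10 CPM in either combination, 147 were at least 2-fold higher in JQ1+palbociclib (2.15% of genes) and 53 at least 2-fold higher in JQ1+paclitaxel (0.776%), 2.93% in all. The same limits gave 4 genes higher (0.061%) and 9 lower (0.137%) in JQ1-B against JQ1-A, of 6553, and 37 higher (0.532%) and 20 lower (0.288%) in cells before treatment against DMSO, of 6953. The excess of higher genes depended on scaling. The split of 147 to 53 became 117 to 70 with TMM factors and 98 to 81 with median-of-ratios size factors, and the median log2 ratio of all genes moved from 0.10 to 0.02 and -0.02. Genes just inside the limit included FMNL2 at a ratio of 2.0002 and ESD at 2.01, and those just outside included ALAD at 1.997 and MXD3 at 1.990.

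**Figure D1:**
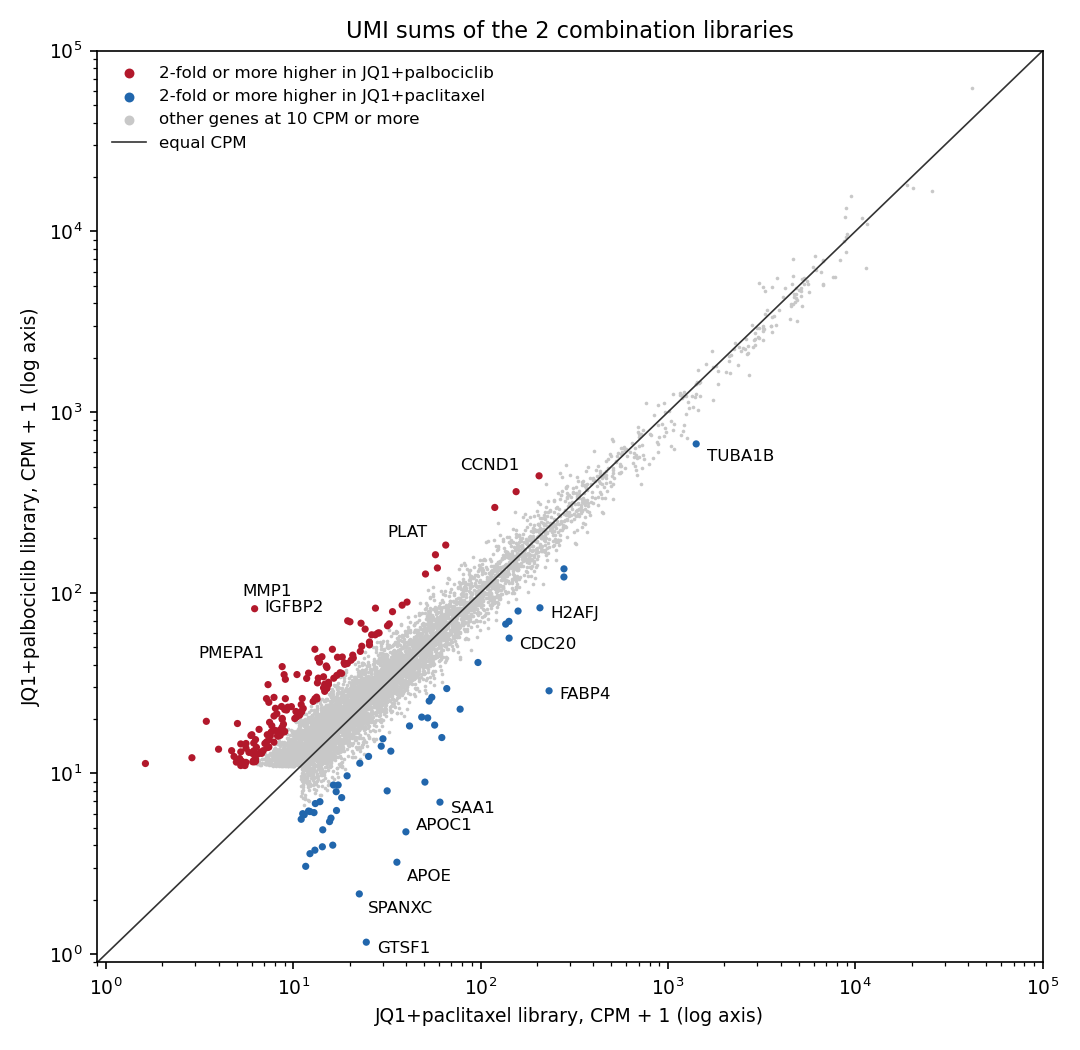
Level of each gene that reached 10 CPM in either combination, as CPM + 1 in JQ1+paclitaxel (horizontal, log axis) and JQ1+palbociclib (vertical, log axis). The 147 red genes include MMP1 and the 53 blue genes include FABP4 and GTSF1, while most genes sit along the line of equal CPM.

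MMP1, an interstitial collagenase that cleaves fibrillar collagen, had the largest ratio toward JQ1+palbociclib among genes with at least 20 CPM. Its level was 80.6 CPM in JQ1+palbociclib and 5.23 CPM in JQ1+paclitaxel, 15.4-fold apart (12.2 to 19.7). JQ1-B held 31.0 CPM of it and JQ1-A 13.04 CPM, so the libraries of JQ1 alone also differed in the same direction. In the single agents the order was the opposite, at 9.06 CPM in palbociclib and 37.6 CPM in paclitaxel. The gene lies at chr11:102660132-102668891 (GRCh37, minus strand). MMP1 was seen in 23.4% of JQ1+palbociclib cells (20.7 to 26.1%) and 2.64% of JQ1+paclitaxel cells (1.52 to 4.25%), after each cell was thinned to 10000 UMIs.

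The 12 largest ratios in this direction also included 2 clone-named genes, Z83851.1 (24.96 against 6.21 CPM) and RP11-669N7.2 (47.7 against 12.1 CPM). PMEPA1, a feedback inhibitor of TGF-β signalling, stood at 38.03 against 7.74 CPM, 4.91-fold higher (4.03 to 6.04). DNER, a Notch ligand of the nervous system, stood at 30.03 against 6.35 CPM. SPOCK1, a matrix proteoglycan, stood at 34.2 against 7.95 CPM. The JQ1-B and JQ1-A levels of these genes were lower than in JQ1+palbociclib, at 16.5 and 15.6 CPM for PMEPA1, 8.82 and 9.70 CPM for DNER and 4.24 and 9.64 CPM for SPOCK1. FAM20C, the Golgi kinase of secreted proteins, was 3.98-fold higher (3.27 to 4.88), and IGFBP2, which binds insulin-like growth factors, was 3.72-fold higher (3.27 to 4.25). For IGFBP2 the JQ1 libraries were in the opposite order to the combinations, with 21.9 CPM under JQ1-B and 40.2 CPM under JQ1-A. DCBLD2, COL18A1, NRCAM and MYEOV were between 3.56-fold and 3.70-fold higher.

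GTSF1, SPANXC, APOE, SAA1 and APOC1 were among the largest ratios toward JQ1+paclitaxel. GTSF1, a germline factor of the piRNA pathway, had 338 UMIs (23.6 CPM) in JQ1+paclitaxel and 4 UMIs (0.165 CPM) in JQ1+palbociclib, with 2.53 CPM in JQ1-A and 7.49 CPM in JQ1-B. FABP4, a fatty acid carrier of adipocytes and macrophages, was 8.35-fold higher (7.69 to 9.09) in JQ1+paclitaxel, at 231 against 27.7 CPM. Its levels in the JQ1 libraries were close to each other, at 9.27 and 8.92 CPM, and below both combinations. APOE, which carries cholesterol in lipoproteins, was 15.6-fold higher (11.8 to 21.1), and its genomic neighbour APOC1 10.4-fold higher (8.31 to 13.1). SAA1, an acute-phase protein, was 10.1-fold higher (8.42 to 12.1), at 59.8 against 5.94 CPM, while it was 257 CPM in palbociclib alone. Reads of SAA1 can be shared with its close paralogs, and those of SPANXC (21.5 against 1.16 CPM) with other SPANX genes, so the values of both are uncertain.

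**Figure D2:**
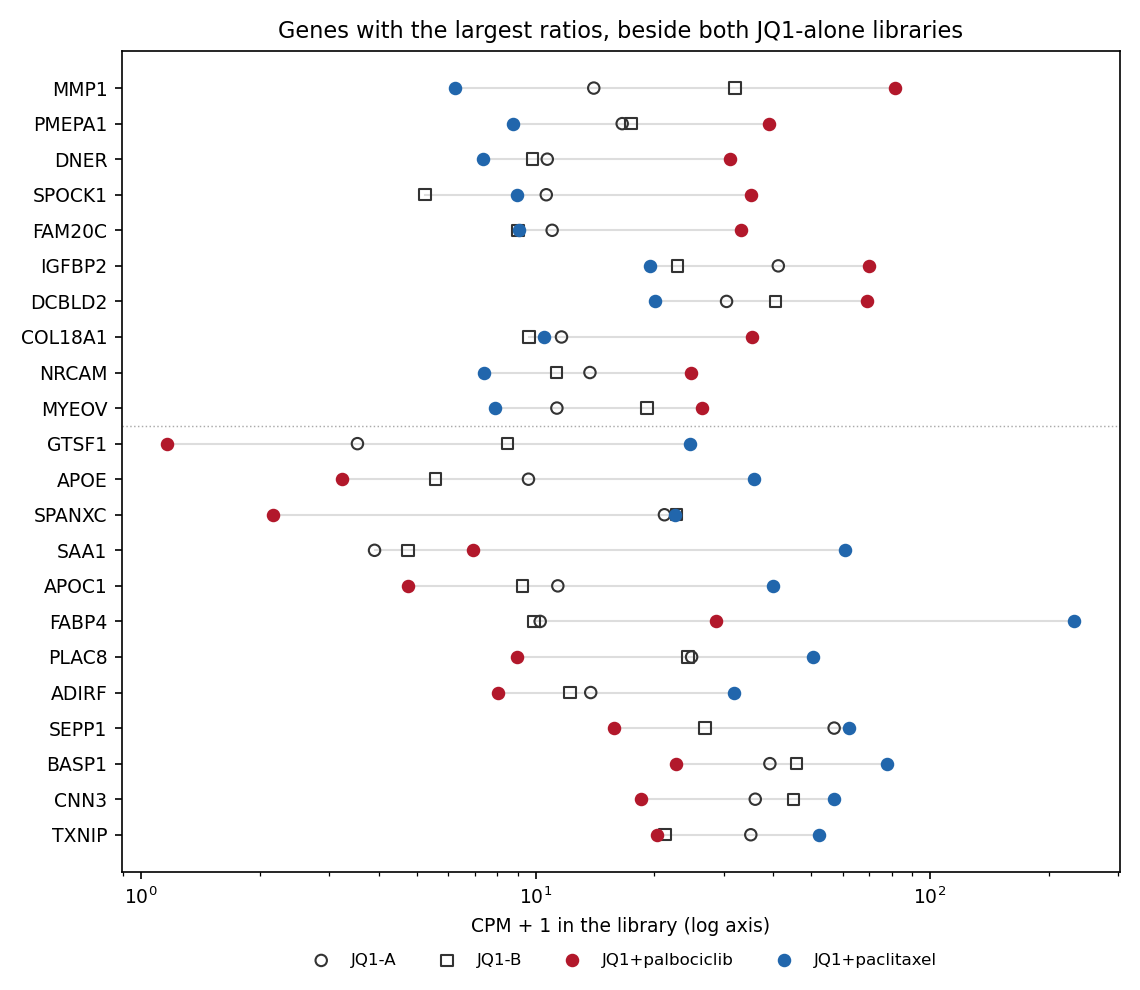
CPM + 1 (log axis) of the genes with the largest ratios in both combination libraries (filled) and both JQ1-alone libraries (open); the upper group is higher in JQ1+palbociclib and the lower in JQ1+paclitaxel. For MMP1 the JQ1 libraries lie between the combinations, while for FABP4 both lie below them.

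The 10% of JQ1+paclitaxel cells with the most FABP4 held 88.7% of its UMIs there. This share was 88.4% in JQ1+palbociclib, where only 13.3% of thinned cells had FABP4, so low detection alone made it high. The shares therefore cannot tell whether FABP4 was equally concentrated in both libraries. Thinned cells with FABP4 held a mean of 8.77 of its UMIs under JQ1+paclitaxel, against 2.08 under JQ1+palbociclib. The share was 100% in JQ1-A and JQ1-B, where fewer than 10% of thinned cells had FABP4. In JQ1+paclitaxel, 26.1% of 606 thinned cells had FABP4 and 11.9% had APOE. Of the 72 cells with APOE, 54.2% (42.0 to 66.0%) had APOC1, against 14.4% (11.6 to 17.7%) of the others, and 55.6% (43.4 to 67.3%) had FABP4, against 22.1% (18.6 to 25.9%). PLAC8, a gene first described in placenta, was found in 39.9% of cells with FABP4 and 18.3% of the rest. GTSF1 was found in 17.7% (12.1 to 24.6%) of cells with FABP4 and 23.4% (19.6 to 27.6%) of the rest. In JQ1+palbociclib, 32.2% (26.1 to 38.7%) of the 227 cells with MMP1 had IGFBP2, against 48.6% (44.9 to 52.2%) of the rest, although the cells with MMP1 had more genes detected (medians of 4099 and 3864). Cells of a library share its cultures and clones, so these shares are descriptions.

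CDK4 and RB1 were near equal, and cyclins D1 and E1 and CDK6 were higher in JQ1+palbociclib. Among G1 regulators, 3 of 16 passed the 2-fold limit, all higher in JQ1+palbociclib, against 2.15% of all genes tested. The list as a whole leaned the other way, with a median of -0.11 and 6 genes above the median of all genes. In low-cycling cells, described with the G2/M genes, the median of this list lay 0.19 above that of all genes. Cyclin D1 (CCND1), the partner of CDK4 and CDK6, was 2.17-fold higher (2.08 to 2.26), at 443 against 204 CPM, with 297 CPM in JQ1-B and 253 in JQ1-A. CDK6 was 2.13-fold higher (1.81 to 2.51), at 28.8 against 13.5 CPM. CCNE1, cyclin E1, was 2.47-fold higher (1.87 to 3.32), at 10.7 against 4.32 CPM. With median-of-ratios factors the log2 ratio of CCND1 was 0.99. CDK4 was 130 against 129 CPM and RB1 was 12.3 against 13.7 CPM, with ratios of 1.01 (0.951 to 1.07) and 0.898 (0.748 to 1.08). CCNE2 was 1.51-fold higher (1.08 to 2.15), at 5.16 against 3.42 CPM. CDKN1A, the CDK inhibitor p21, stood at 38.7 against 43.5 CPM.

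BRD3, a BET protein, had a ratio of 1.02 (0.884 to 1.18), and BRD2 had a ratio of 0.896 (0.837 to 0.959). MYC, which BET inhibition lowers in many cells, was 569 against 604 CPM, with 401 CPM for JQ1-B and 522 CPM for JQ1-A. TUBB, the main β-tubulin, was 579 against 677 CPM, below both JQ1 libraries. ABCB1, the efflux pump P-glycoprotein that exports paclitaxel, was rare in every library. It had 27 UMIs in JQ1+paclitaxel and 1 UMI in JQ1+palbociclib, which gave a ratio of 45.6 with an interval from 7.52 to 1868, and the most in any other library was 0.715 CPM, in paclitaxel alone.

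Matrix and protease genes formed the broadest group toward JQ1+palbociclib. Of all genes tested, 2.15% were past the 2-fold limit in this direction and 0.776% in the other. Of 25 tested collagen and matrix genes, 5 were past it in this direction and 2 in the other. Their median log2 ratio was 0.56, against 0.10 over all genes and -0.26 for the same genes in JQ1-B over JQ1-A. VCAN, a large proteoglycan, was 3.37-fold higher (2.88 to 3.97), FBLN1 was 3.14-fold higher (2.71 to 3.64) and LAMA5, a laminin of basement membranes, was 2.49-fold higher (2.17 to 2.87). COL1A1 and COL8A1 were 2.12-fold lower (COL1A1 1.91 to 2.36). Of 21 proteases and inhibitors 5 were past the limit, all higher in JQ1+palbociclib, and their median was 0.56. PLAT, tissue plasminogen activator, was 2.85-fold higher (2.65 to 3.06), at 183 against 64.2 CPM, and its inhibitor SERPINE2 2.27-fold higher (2.06 to 2.503). TIMP2, which inhibits metalloproteases, was 2.22-fold higher (2.02 to 2.44), and HTRA1 2.28-fold higher (2.03 to 2.57). In low-cycling cells the matrix median lay 0.20 above that of all genes, instead of 0.46. In integrins and adhesion genes the median was 0.69 over 15 genes, with 3 past the limit, NRCAM, CADM1 (3.12-fold) and ITGB4 (3.07-fold).

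Single genes of growth factor and redox lists were higher in JQ1+palbociclib. The median of 17 EGFR ligand and MAPK feedback genes was 0.42, with DUSP4, a phosphatase of ERK, 2.18-fold higher (1.94 to 2.45). Of 9 genes in the list of insulin-like growth factor signalling, 3 were past the limit, against 2.15% of all genes tested. The list median was 0.29. IGF2BP3 was 4.43-fold higher (3.36 to 5.93) and STC1 2.66-fold higher (2.28 to 3.11). Among 17 targets of the redox factor NRF2, SLC7A11, the cystine transporter, was 2.65-fold higher (2.29 to 3.06) and GCLC, the rate-limiting enzyme of glutathione synthesis, 2.25-fold higher (1.83 to 2.79), while the median of the list was 0.32. The IGF and NRF2 medians lay 0.20 and 0.23 above that of all genes, and in low-cycling cells 0.084 above and -0.090 from it, so the NRF2 list turned. Of 12 mitochondrial-encoded genes none passed the limit, and their median was 0.49. MT-CO2 was 15723 against 9522 CPM, and MT-ND6, encoded on the opposite strand to most of them, was 63.5 against 87.5 CPM.

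Lipid, histone and nuclear protein genes were lower in JQ1+palbociclib than in JQ1+paclitaxel. Of 8 tested lipid carrier genes, 3 passed the limit (FABP4, APOE and APOC1), against 0.776% of all genes tested. The list median was -0.51. Of 15 histone genes, 1 lay above the median of all genes, 2 passed the limit and the median was -0.56, with 0.07 for JQ1-B over JQ1-A. H2AFJ, a histone H2A variant at chr12:14927339-14930936 (GRCh37), was 2.53-fold lower (2.39 to 2.68), at 81.6 against 207 CPM, beside 183 CPM in JQ1-B and 164 in JQ1-A. TUBA1B, an α-tubulin, was 666 against 1415 CPM. The median over 17 tubulin and microtubule genes was -0.22. HMGB2, a chromatin protein of dividing cells, was 2.29-fold lower (2.18 to 2.40). For 24 cholesterol and fatty acid synthesis genes the median was -0.28, and INSIG1 (47.2 against 88.0 CPM) and SREBF1 (26.8 against 50.5 CPM) had the lowest ratios.

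Other named genes had higher levels in JQ1+paclitaxel. ADIRF, an adipogenesis factor, was 4.38-fold higher (3.67 to 5.27), and SEPP1, the plasma carrier of selenium, 4.13-fold higher (3.65 to 4.68). SEPP1 was also lower in JQ1-B (25.9 CPM) than in JQ1-A (56.1 CPM). CNN3, an actin-binding calponin, was 3.19-fold higher (2.83 to 3.60), at 55.9 against 17.5 CPM, and TXNIP, an inhibitor of thioredoxin, was 51.2 against 19.3 CPM. Among 18 genes of ATF4 and the unfolded protein response, DDIT3 (2.02-fold) and PHGDH (2.11-fold) passed the limit, against 0.776% of all genes tested. The list median was -0.05. In the p53 list, BBC3, which encodes the cell-death protein PUMA, was 2.15-fold higher in JQ1+paclitaxel, and SESN3, a sestrin, was 3.02-fold higher (2.53 to 3.61) in JQ1+palbociclib. SESN3 stood at 32.6 against 10.8 CPM, above both JQ1 libraries (7.601 and 6.65 CPM). Of 78 cytosolic ribosomal proteins, 8 lay above the median of all genes, and none passed the limit. The same was true of 10 of 66 nuclear respiratory chain genes, with a list median of -0.16, while the mitochondrial-encoded genes of the same chain were at 0.49.

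**Figure D3:**
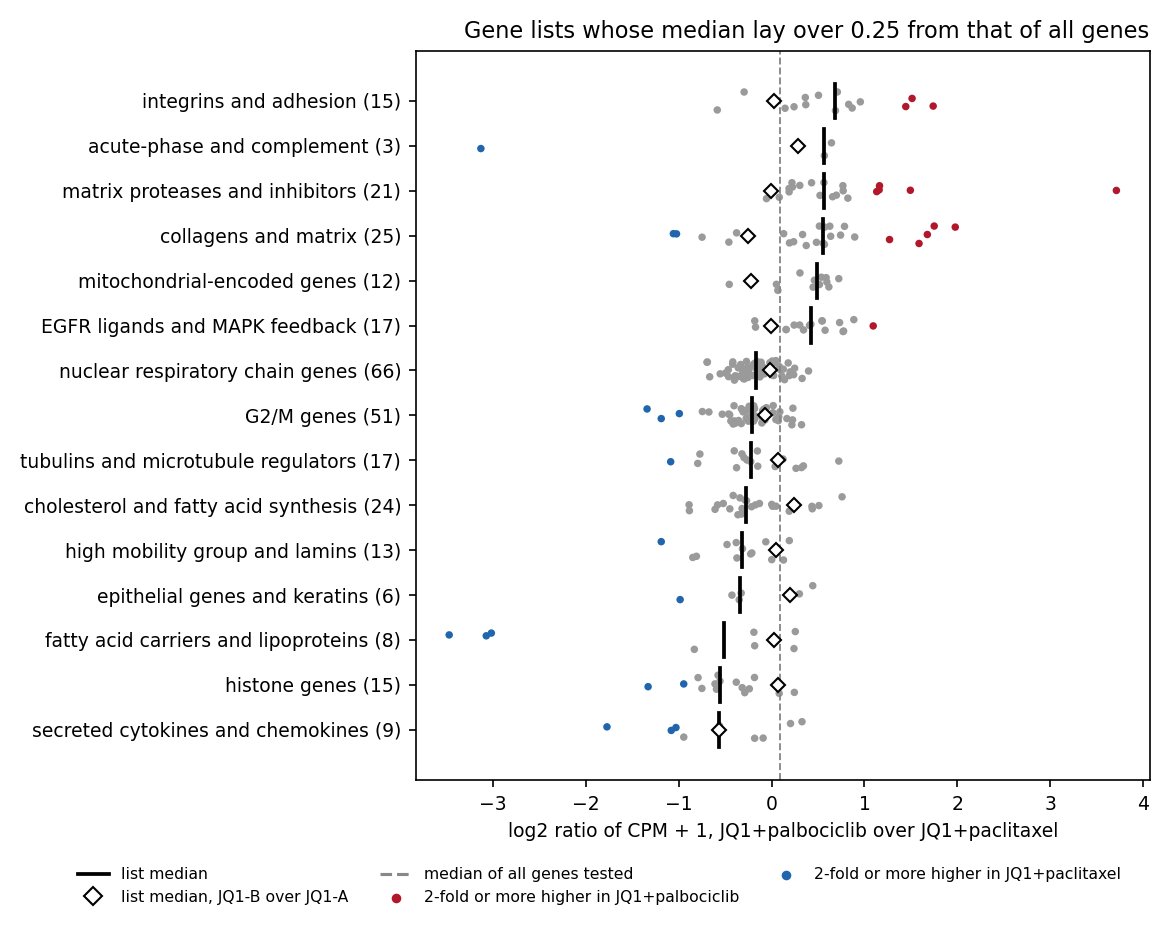
Log2 ratio of CPM + 1 of JQ1+palbociclib over JQ1+paclitaxel (horizontal) for members of the 15 lists of 39 whose median lay over 0.25 from that of all genes, with numbers of tested genes in brackets. Bars are list medians and diamonds the medians of JQ1-B over JQ1-A, which coincide for cytokines and chemokines (-0.56) and differ for integrins and adhesion (0.69 against 0.03).

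In the G2/M list, 3 of 51 genes were past the limit, all lower in JQ1+palbociclib, against 0.776% of all genes tested. The list median was -0.21. CDC20, the activator of the anaphase-promoting complex, was 55.1 against 141 CPM, beside 103 CPM in JQ1-B and 96.7 in JQ1-A. FAM64A was 2.09-fold lower (1.76 to 2.47). Among cells with few cell-cycle UMIs in both libraries, the median of the list was 0.27 above that of all genes, and CDC20 and FAM64A had log2 ratios of 0.076 and 0.71, in the opposite direction. These cells were chosen by the same genes, and they were 50.6% of thinned JQ1+palbociclib and 47.4% of thinned JQ1+paclitaxel cells. S-phase genes stood at a median of 0.08, which was -0.01 from that of all genes, and DSCC1 was 2.09-fold higher (1.61 to 2.75) in JQ1+palbociclib. In low-cycling cells the S-phase median lay 0.39 above that of all genes, and after division by JQ1 alone it lay at -0.24 from it.

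The CDC20 promoter holds a letter match found in many mitotic genes, and its sequence is shown for that reason. RefSeq gives chr1:43358731-43359030 (GRCh38.p14, plus strand), from 250 bases before to 50 after the gene's start, and capitals mark the CHR letters TTTGAA, which were searched on both strands.
CDC20: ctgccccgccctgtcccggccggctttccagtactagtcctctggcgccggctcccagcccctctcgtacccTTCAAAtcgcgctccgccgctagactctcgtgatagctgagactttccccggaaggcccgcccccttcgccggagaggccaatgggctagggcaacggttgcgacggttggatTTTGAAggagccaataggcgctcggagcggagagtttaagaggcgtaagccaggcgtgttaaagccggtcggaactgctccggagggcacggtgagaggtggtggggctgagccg
Of 41 G2/M genes whose promoters matched, 70.7% hold TTTGAA, against 9.25% of 5608 tested genes with a promoter in the table. Of 103 genes higher in JQ1+palbociclib with a promoter, 10.7% hold it, and of 38 higher in JQ1+paclitaxel, 10.5%. A match of letters is a description and not a binding site.

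Chemokine genes were lower in JQ1+palbociclib, and lower also in JQ1-B against JQ1-A. The median log2 ratio over 9 cytokines was -0.56 in both comparisons, and after division by JQ1 alone it lay at -0.31 from that of all genes. CXCL1, CXCL2 and CXCL3 draw neutrophils to inflamed tissue, and they were 4.35-fold (3.23 to 5.91), 2.06-fold (1.93 to 2.20) and 2.16-fold (1.94 to 2.41) lower. CXCL1 had a log2 ratio of -1.77 between the combinations and -0.84 between the JQ1 libraries. CXCL2 was 68.5 CPM in JQ1+palbociclib, 65.9 CPM in JQ1-B, 141 CPM in JQ1+paclitaxel and 170 CPM in JQ1-A. When each combination was divided by JQ1 alone of its experiment the log2 ratio of CXCL2 was 0.32, that of CXCL3 -0.08 and that of CXCL1 -0.93. NFKBIA, an inhibitor and target of NF-κB, was 66.1 against 135 CPM, with 90.5 in JQ1-B and 141 in JQ1-A. IL8 was 111 against 214 CPM and did not reach the limit. These closely related CXCL genes may share reads.

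The promoters of the 3 CXCL genes are shown because their κB letters stand at almost the same distance from the start. RefSeq gives chr4:73869143-73869442 (plus strand), chr4:74099146-74099445 (minus strand) and chr4:74038640-74038939 (minus strand) on GRCh38.p14, and capitals mark the κB letters (GGG, any 3 bases, then TTCC), searched on both strands, whose matches on the opposite strands overlap.
CXCL1: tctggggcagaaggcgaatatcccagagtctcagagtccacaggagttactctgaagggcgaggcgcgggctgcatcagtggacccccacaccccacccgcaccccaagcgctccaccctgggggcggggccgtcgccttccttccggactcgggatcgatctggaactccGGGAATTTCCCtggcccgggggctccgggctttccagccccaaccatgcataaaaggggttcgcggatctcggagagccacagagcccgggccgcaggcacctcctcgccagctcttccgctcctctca
CXCL2: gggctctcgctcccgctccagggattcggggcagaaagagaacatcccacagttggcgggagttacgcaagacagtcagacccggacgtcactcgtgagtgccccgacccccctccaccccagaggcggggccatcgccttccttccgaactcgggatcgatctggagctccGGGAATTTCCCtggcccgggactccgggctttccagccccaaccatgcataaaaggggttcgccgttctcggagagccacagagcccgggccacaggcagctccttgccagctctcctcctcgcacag
CXCL3: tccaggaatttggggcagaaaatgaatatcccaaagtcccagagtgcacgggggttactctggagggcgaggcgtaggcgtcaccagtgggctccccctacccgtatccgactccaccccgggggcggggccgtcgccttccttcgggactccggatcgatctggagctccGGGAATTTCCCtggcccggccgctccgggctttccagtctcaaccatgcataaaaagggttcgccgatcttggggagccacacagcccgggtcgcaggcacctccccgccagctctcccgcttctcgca
The letters occur in 7.72% of the promoters of tested genes, in 10.7% of those higher in JQ1+palbociclib and in 21.1% of those higher in JQ1+paclitaxel. Of 7 cytokine promoters in the table, 71.4% hold them.

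Transcript length moved with the ratio. Over 5 equal groups of genes by transcript length the median log2 ratio was -0.05, -0.03, 0.10, 0.22 and 0.24 from the shortest to the longest, whereas in JQ1-B over JQ1-A it went from 0.06 to 0.01. The shortest group held 12 of the genes higher in JQ1+palbociclib and 25 of those higher in JQ1+paclitaxel, and the longest 45 and 4. Centred within length groups, the list medians were 0.33 for collagens and matrix, 0.53 for proteases and inhibitors, 0.46 for integrins and adhesion and -0.50 for histones. The part of length in these results was not tested beyond this centring.

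Each combination was next set against JQ1 alone of its own experiment. JQ1+palbociclib over JQ1-B had 63 genes at least 2-fold higher (0.925%) and 21 lower (0.308%) of 6809, and JQ1+paclitaxel over JQ1-A had 18 higher (0.277%) and 12 lower (0.184%) of 6506. The median absolute log2 ratio, after centring, was 0.23 between the combinations, 0.18 and 0.13 for these partner effects and 0.11 between the JQ1 libraries. Across 6826 genes the partner effects had a Pearson r of -0.27 and a Spearman rho of -0.31, given as a description over genes that are not independent. Of the 147 genes higher in JQ1+palbociclib, 125 had both combinations outside the 2 JQ1 libraries and on opposite sides (85.0%, against 25.1% of all genes tested). After division by JQ1 alone, 97 of the 147 stayed at least 2-fold apart (66.0%, against 2.09% of all genes tested). Of the 53 genes higher in JQ1+paclitaxel these numbers were 39 (73.6%, against 12.03% of all genes) and 30 (56.6%, against 0.835%). Genes chosen for a large gap between the combinations tend to fall outside the JQ1 libraries, so these counts in part restate the choice.

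The single agents were compared with the combinations in the same way. Palbociclib over paclitaxel without JQ1 gave 475 genes at least 2-fold higher (6.54%) and 760 lower (10.5%) of 7264. Of the 147 genes higher in JQ1+palbociclib, 74.8% were also higher in palbociclib than in paclitaxel, against 41.2% of all genes tested. Of the 53 genes higher in JQ1+paclitaxel, 39.6% were higher in paclitaxel alone, against 58.8% of all genes. Each single agent was grown in the experiment of its combination, so agent and experiment cannot be told apart here either. VCAN had 48.7 CPM in palbociclib and 17.6 CPM in paclitaxel, the same order as in the combinations, and H2AFJ had 223 and 107 CPM, the opposite order.

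Ratios differed by chromosome. Over 4479 genes with at least 20 CPM placed on GRCh37, the median of chromosome 13 lay 0.48 below that of all genes, with 63 of its 68 genes below it, and 0.01 above it in JQ1-B over JQ1-A. Chromosome 13 was 0.26 lower in JQ1+palbociclib against JQ1-B and 0.23 higher in JQ1+paclitaxel against JQ1-A, in opposite directions. RB1 lies there, and ESD, an esterase gene, was the member named for its ratio, at 78.3 against 158 CPM. Chromosome 12, which holds H2AFJ, TUBA1B and GTSF1, had a median of -0.26, with 181 of 237 genes below. Chromosomes 2, 21 and 7 had medians of 0.22, 0.21 and 0.20. Divided into 136 blocks of neighbouring genes, the genome had medians from -0.53 to 0.35, and 10 blocks lay 0.3 or more away. JQ1-B over JQ1-A had none, with blocks between -0.13 and 0.22. Against JQ1 alone of its own experiment, JQ1+palbociclib had 1 such block and JQ1+paclitaxel none. Between the combinations the lowest block, of 34 genes on chromosome 13 from MPHOSPH8 to ESD (chr13:20207799-47371555), had 31 of its genes below the median of all genes. The highest, of 36 genes on chromosome 20 from CEBPB to TCEA2 (chr20:48807367-62703700), had 33 above.

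**Figure D4:**
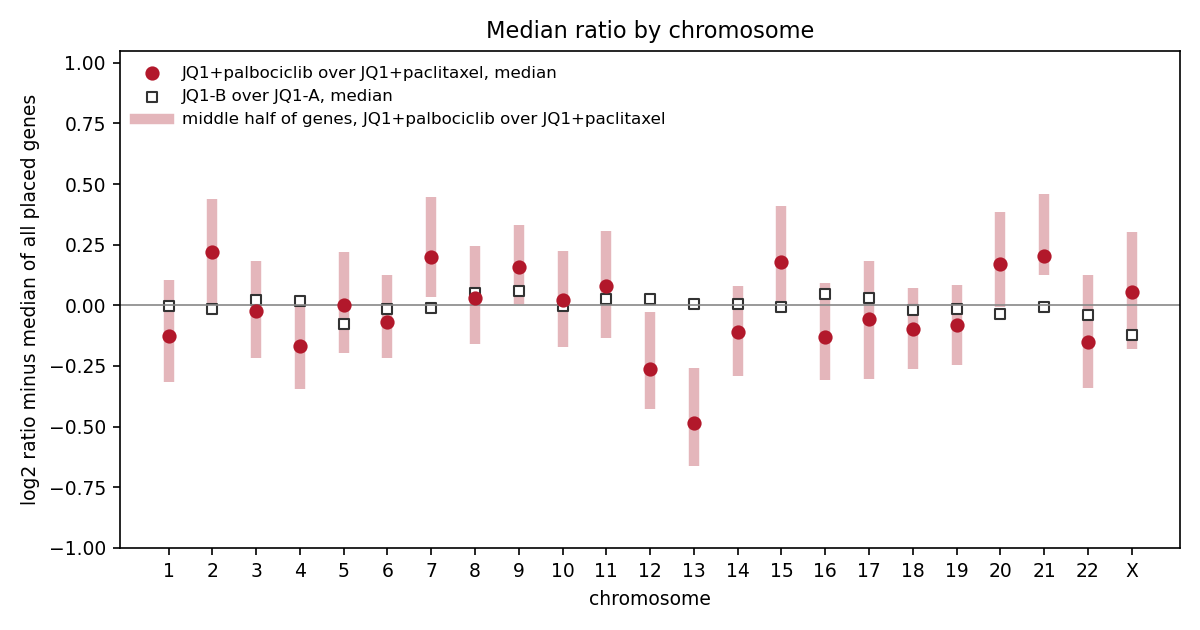
Median log2 ratio per chromosome minus the median of all placed genes, for JQ1+palbociclib over JQ1+paclitaxel (filled, with bars for the interquartile range of genes) and JQ1-B over JQ1-A (open). Chromosomes 13 (-0.48) and 12 (-0.26) lie lowest, while the open marks lie close to 0.

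Median variation between cells was close in the libraries. The variance over cells in excess of Poisson noise, divided by the squared mean, had a median of 0.154 in JQ1+palbociclib and 0.146 in JQ1+paclitaxel over 1751 genes, and 52.0% of genes varied more in JQ1+palbociclib. The JQ1 libraries had 0.161 (JQ1-A) and 0.144 (JQ1-B). Their difference was no smaller than that between the combinations, but by experiment it went the opposite way. Single genes differed more. H2AFJ had an excess of 1.87 in JQ1+palbociclib and 0.364 in JQ1+paclitaxel, with 0.580 and 0.437 in JQ1-A and JQ1-B. ANXA1, an annexin that limits inflammation, had near-equal levels (88.7 against 90.1 CPM) and an excess of 1.31 against 0.592. TUBA1A, PRDX1, MRPL13 and SOX4 also varied more in JQ1+palbociclib, by 0.55 to 0.65. In JQ1-A and JQ1-B the excess was 0.896 and 0.790 for ANXA1, 0.826 and 0.863 for TUBA1A, and 0.853 and 0.524 for PRDX1. MRPL13 had 0.517 and 0.285, and SOX4 had 1.16 and 0.392. For SOX4 the JQ1-A value was thus close to that of JQ1+palbociclib (1.18). IL8 (3.45 against 7.93), GS1-600G8.5, DKK1, HMOX1, ID3 and SPANXD varied more in JQ1+paclitaxel. DKK1, a secreted WNT inhibitor, had 3.46 against 1.15 at near-equal levels of 97.4 and 93.8 CPM. The JQ1 libraries also differed for DKK1, with 3.45 in JQ1-A and 1.76 in JQ1-B. IL8 had 4.93 in JQ1-A and 6.25 in JQ1-B. For HMOX1 (3.25 and 4.25) and SPANXD (2.77 and 2.36) both JQ1 libraries lay above JQ1+paclitaxel (2.56 and 2.14). For GS1-600G8.5 (1.29 and 1.47) and ID3 (1.67 and 0.928) both lay below JQ1+paclitaxel (4.37 and 2.09).

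H2AFJ, PLAT and BASP1 had the largest differences in the share of cells that held a gene. At 10000 UMIs per cell, 972 and 606 cells were left. Of 3315 genes found in at least 25% of cells of a library, 13 were found in at least 25 percentage points more cells of JQ1+palbociclib (0.392%) and 2 in more cells of JQ1+paclitaxel (0.0603%), while none of 3169 differed so between JQ1-B and JQ1-A. H2AFJ was found in 38.5% (35.4 to 41.6%) of JQ1+palbociclib and 78.2% (74.7 to 81.4%) of JQ1+paclitaxel cells, and in 74.9% and 66.9% of JQ1-B and JQ1-A cells. BASP1, a growth cone protein, was found in 16.6% against 49.2% of cells. PLAT was found in 73.8% against 36.96% and MARCKSL1, an actin-binding protein, in 67.6% against 36.8%. IGFBP2 was found in 44.8% against 14.7% and BEX1 in 37.3% against 10.1%. RAMP1, a receptor partner of CGRP, was found in 87.1% against 60.1%, with 64.3% in JQ1-A and 59.9% in JQ1-B.

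**Figure D5:**
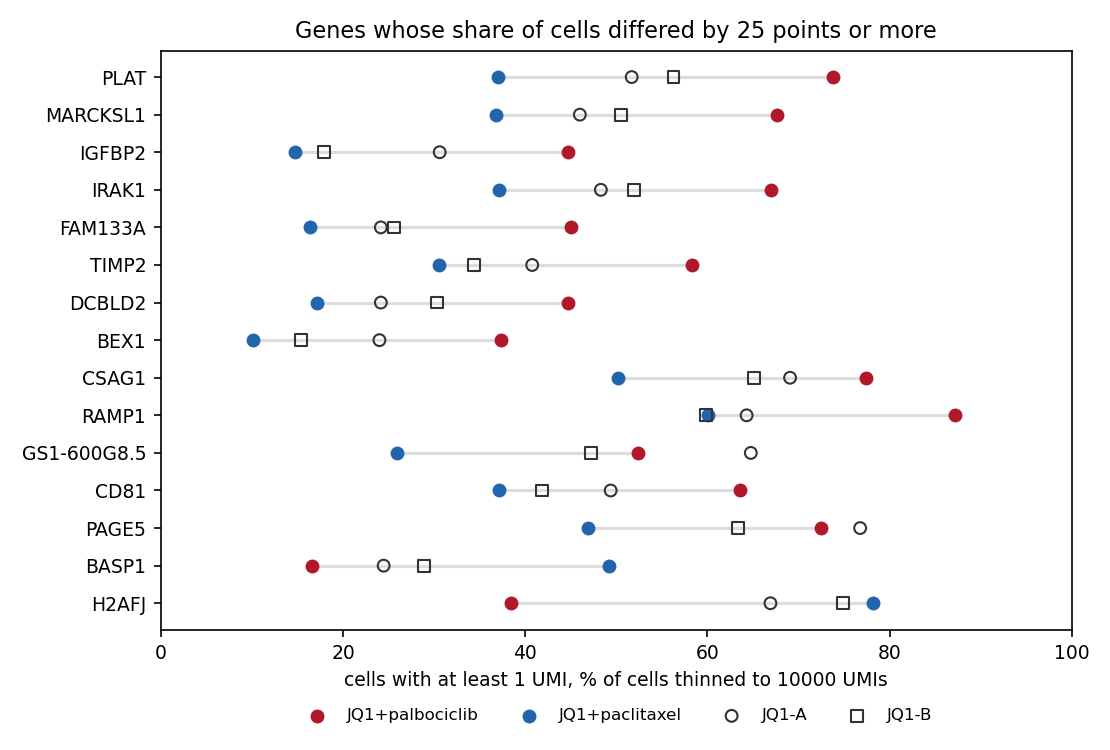
Percentage of cells thinned to 10000 UMIs with at least 1 UMI, for the 15 genes whose share differed by 25 points or more between the combinations (filled), beside the JQ1 libraries (open). H2AFJ and BASP1 are found in more JQ1+paclitaxel cells and the other 13 in more JQ1+palbociclib cells.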

How the data were processed

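The authors deposited a table of UMI counts per gene and cell with a table of cell metadata. Per the labels and the study's methods they used 10x Chromium 3' v2 chemistry, alignment to hg19, CellRanger counting and Seurat, and pooled equal cell numbers of replicate cultures. The deposited counts held 18955 genes, each in at least 3 cells, and include cells outside the study's filter of 1 to 15% mitochondrial UMIs and at least 2000 genes, which was applied only for values per cell. UMIs of each library were summed and scaled to CPM, and ratios of CPM + 1 were used on the log2 scale, which understates the change of low genes. A gene passed at a ratio of 2 or 0.5 with 10 CPM in the higher library. Gene places came from GENCODE on GRCh37 (6710 of the 6826 genes), promoters from RefSeq on GRCh38.p14, another build than the hg19 of the files. Scripts ran on Python 3.11.15 with numpy 2.4.6 and scipy 1.17.1, and TMM factors came from edgeR 4.0.16 on R 4.3.3. The ratio and thinning code was tested on simulated data. 13 cell barcodes occurred in more than 1 of the 8 libraries. Doublets were not called.

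Named genes were the 12 largest ratios in each direction at 20 CPM, up to 3 genes past the limit per list, 13 targets or genes the study discusses, and 6 genes per direction for variation and for detection, 82 in all, of which 1 is not reported here. FBLN1, LAMA5, HTRA1, COL1A1, COL8A1, INSIG1, SREBF1, MT-CO2, MT-ND6, BEX1, RAMP1, IGSF3 and the genes near the limit were named after their values were seen. The gene groups, lists and members were chosen with earlier results of these data known. Alternatives for scaling, low-count filters, cells, depth, cell cycle and experiment were run, and length centring and chromosome blocks were added after seeing the data.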

Additional observations from a re-analysis of the deposited data

Results flagged for a closer look

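In 6 genes the combinations lay 2-fold or more from JQ1 alone of their own experiment in opposite directions, and the difference was not tested, since each value comes from 1 library. The difference between the partner effects, in log2 ratios, was 2.77 for IGSF3, a cell-surface immunoglobulin protein, which stood at 10.4 CPM in JQ1+palbociclib, 3.30 CPM in JQ1-B, 0.628 CPM in JQ1+paclitaxel and 3.21 CPM in JQ1-A. It was 2.69 for IGFBP2 and 2.52 for MMP1. BEX1 had 2.17, with 66.8 CPM in JQ1+palbociclib, 31.1 CPM in JQ1-B, 22.03 CPM in JQ1+paclitaxel and 48.2 CPM in JQ1-A. In the other direction PLAC8 had -2.46, with 7.96, 23.3, 49.5 and 23.9 CPM in the same order of libraries. GTSF1 had -5.66 and rests on 4 UMIs in JQ1+palbociclib. The IGSF3 value also rests on few UMIs, in JQ1+paclitaxel (0.628 CPM).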

How the results depend on the processing

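No paired analysis was possible because each group had 1 library and the replicate number only names it. Genes past the limit numbered 81 toward JQ1+paclitaxel with median-of-ratios factors, 266 toward JQ1+palbociclib and 92 toward JQ1+paclitaxel at 5 CPM, 24 and 18 at 50 CPM, and 241 and 134 with no filter and CPM + 1. In low-cycling cells, 226 genes were higher in JQ1+palbociclib. Genes with a share difference of 25 points numbered 2 and 1 at 5000 UMIs per cell and 52 and 6 without thinning. The other 27 counts of genes, counts of lists and median variations stayed within 1.5 times. List medians, given from the median of all genes, moved more. In low-cycling cells matrix went from 0.46 to 0.20, tubulins from -0.32 to -0.089 and high mobility group and lamins from -0.41 to -0.23, all to within 0.25, and histones from -0.65 to -0.38. After division by JQ1 alone cytokines went from -0.66 to -0.31. The NRF2 list (0.23 to -0.090) and the G1 list (-0.21 to 0.19) changed sign in low-cycling cells. The S-phase list went from -0.01 to 0.39 in low-cycling cells and to -0.24 after division by JQ1 alone. In all, 170 values of single genes, lists and chromosomes moved, single genes by more than their counting error and medians by 0.1 or more. Of the 82 named genes, the direction was kept by 79 under each of TMM and median-of-ratios factors, by 78 in low-cycling cells and by 79 after division by JQ1 alone. Among genes past the limit, 3 turned: CDC20 (log2 0.076) and FAM64A (0.71) in low-cycling cells and CXCL2 (0.32) after division by JQ1 alone, and so did the G2/M list (0.27) in low-cycling cells. The cause was not tested. Depth limits ABCB1, GTSF1 and other genes with few UMIs.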
